A study of Mus musculus with 4 samples.

Results

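Surface proteins define and subdivide myeloid cells in flow cytometry, and their transcripts, Ly6c2, Itgam, Itgax, Csf1r and Flt3, were followed here in sorted bone marrow monocytes together with the antibody tags that read the matching proteins. The members were the rows carrying these 5 gene symbols among the 27998 genes of each matrix, which came to 6 rows because the symbol Itgam stood on a pair of them. The antibody features of the female pool held the 5 matching tags, Ly6C, CD11b, CD11c, CD115 and Flt3(CD135), beside 1 further surface tag, I-A(I-E)(MHC-II), and 10 hashtags. The male pool held 10 hashtags and 0 surface tags, so every comparison of RNA with tag concerns females.

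Bone marrow came from wild-type C57BL/6 mice without any transgene or treatment, 5 young and 5 old of each sex. Males were 14 weeks or 27 months old, and females were 15 weeks or 26.5 months old. The marrow of each mouse carried its own hashtag antibody, the 10 mice of a sex were mixed, and the cells collected on the sorter were Ly6G-, CD11b+, CD115+ and Ly6C-high. The gate therefore already used the proteins of 3 of the members, and the levels below are those of cells inside that gate. Each sex was 1 library, so sex and library cannot be told apart, and no difference between the sexes is read from the levels.

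Ly6c2 encodes a small lipid-anchored protein of the Ly6 family that, with the product of its neighbour Ly6c1, is bound by antibodies to Ly6C, the marker that separates classical from non-classical monocytes. Itgam and Itgax encode the integrin alpha chains CD11b and CD11c, which reach the membrane paired with the beta chain of Itgb2 and bind complement fragments, fibrinogen and adhesion molecules. Csf1r and Flt3 encode related class III receptor tyrosine kinases. CSF1R, or CD115, takes up CSF1 and IL-34 and keeps monocytes and macrophages alive, whereas FLT3, or CD135, is carried by multipotent progenitors and by the dendritic cell lineage.

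In the annotation of GRCm38, Ly6c2 lies on the minus strand of chromosome 15 from 75108158 to 75111970, and Ly6c1 from 75044018 to 75048830 on the same strand. Itgam spans 128062640 to 128118491 on the plus strand of chromosome 7, just ahead of Itgax at 128129547 to 128150657. Flt3 occupies 147330741 to 147400489 on the minus strand of chromosome 5. The second row named Itgam (ENSMUSG00000108596, listed as Gm49368 in this annotation) covers 128062683 to 128128160 on chromosome 7. It shares 3450 exonic bases with Itgam, 68.7% of the exonic bases of Itgam. Reads in exons shared by both rows cannot be given to one or the other. This annotation is not the release that the paper names for its counts, so the overlap in the counting itself may differ. The row of Itgam proper (ENSMUSG00000030786) is meant by Itgam below.

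The windows around the starts of the 2 neighbouring Ly6c genes are shown because one gene supplied nearly all Ly6c reads of these cells and the other almost none. Both are 300 bases from RefSeq on GRCm38.p6, minus strand, running from 250 bases ahead of a start to 50 bases after it, with every GAGGAAGT in capitals.
Ly6c2, chr15:75111922-75112221: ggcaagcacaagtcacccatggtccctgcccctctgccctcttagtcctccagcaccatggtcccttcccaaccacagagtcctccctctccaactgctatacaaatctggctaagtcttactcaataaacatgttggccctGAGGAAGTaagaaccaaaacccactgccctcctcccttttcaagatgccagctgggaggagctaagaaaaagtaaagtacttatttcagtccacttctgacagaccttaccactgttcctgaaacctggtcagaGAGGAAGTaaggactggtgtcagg
Ly6c1, chr15:75048788-75049087: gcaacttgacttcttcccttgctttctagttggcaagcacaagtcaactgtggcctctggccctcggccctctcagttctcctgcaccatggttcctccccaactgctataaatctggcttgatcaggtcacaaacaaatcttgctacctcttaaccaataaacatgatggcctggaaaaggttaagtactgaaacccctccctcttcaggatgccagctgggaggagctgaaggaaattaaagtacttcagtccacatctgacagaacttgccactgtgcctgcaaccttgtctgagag
The windows were identical at 74.9% of 283 aligned positions. GAGGAAGT, searched on both strands, occurred 2 times in the Ly6c2 window and 0 times in the Ly6c1 window. The Ly6c1 window shown ends inside a copy of it, and a second Ly6c1 window that begins further downstream held this copy whole, 1 time. A second Ly6c2 window held GAGGAAGT 2 times. Of all 32851 windows of this length, 3.2% held it. The choice of GAGGAAGT was not fixed in the design, and no link between it and the RNA levels was tested.

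After removal of hashtag doublets and negatives, 6641 female and 826 male cells remained, with 259 to 1592 cells per female mouse and 37 to 138 per male mouse. No cell barcode was shared by the libraries. Counts summed per mouse came to between 2827638 and 18186954 UMIs (unique molecular identifiers, 1 per captured molecule) in females and between 226371 and 716548 in males. Cells of old mice were deeper: the median per cell was 9700 to 13033 UMIs in old and 7978 to 8990 in young females, and 4406 to 8579 against 3682 to 4390 in males. For this reason shares of cells were also taken after every cell was thinned to 2000 UMIs.

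Clustering on RNA without the 5 genes, Ly6c1 or any tag gave 9 clusters, of which a pair stands apart and is kept in view beside the results. The 118 female cells of cluster 7 were led by Pomc, Gh and Prl, hormone genes of the pituitary. Their leading hashtag held a median of 25% of their hashtag UMIs, and their median Ly6C tag count was 0. The 35 female cells of cluster 8 were led by Ccl5, Cd3g and Cd3d, T cell genes, and are called T or NK-like, while the 12 male cells of the same cluster were led by the basophil genes Prss34 and Mcpt8. The T or NK-like cells had a median of 1017 hashtag UMIs, against 261 in the largest cluster, and 71.4% of them carried a Csf1r UMI. After thinning, that share was 37.1% in them and 43.2% in all female cells, so a Csf1r UMI by itself was not read as expression by that cell.

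The members differed widely in RNA level. The values are CPM, the UMIs of a gene scaled by the total UMIs of the mouse, with each mouse's total adjusted by a TMM factor. They come from transcript ends and do not scale with transcript length. In females, Ly6c2 gave 196818 UMIs, Csf1r 20142, Itgam 9053, Flt3 613 and Itgax 65, and the order by CPM was the same in young and in old mice without overlap between neighbours in either group. In males the same order held for the totals, with 11123, 694, 393, 50 and 8 UMIs. Ly6c1 gave 76 UMIs in females and 5 in males. Of the 50-base stretches in Ly6c2 transcripts, 13.9% also occur in Ly6c1 transcripts, so a part of the reads of either gene may not have been placed. This share is over whole transcripts of the annotation used here, whereas the reads come from transcript ends. The second Itgam row gave 265 UMIs in females and 12 in males.

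**Figure D1:**
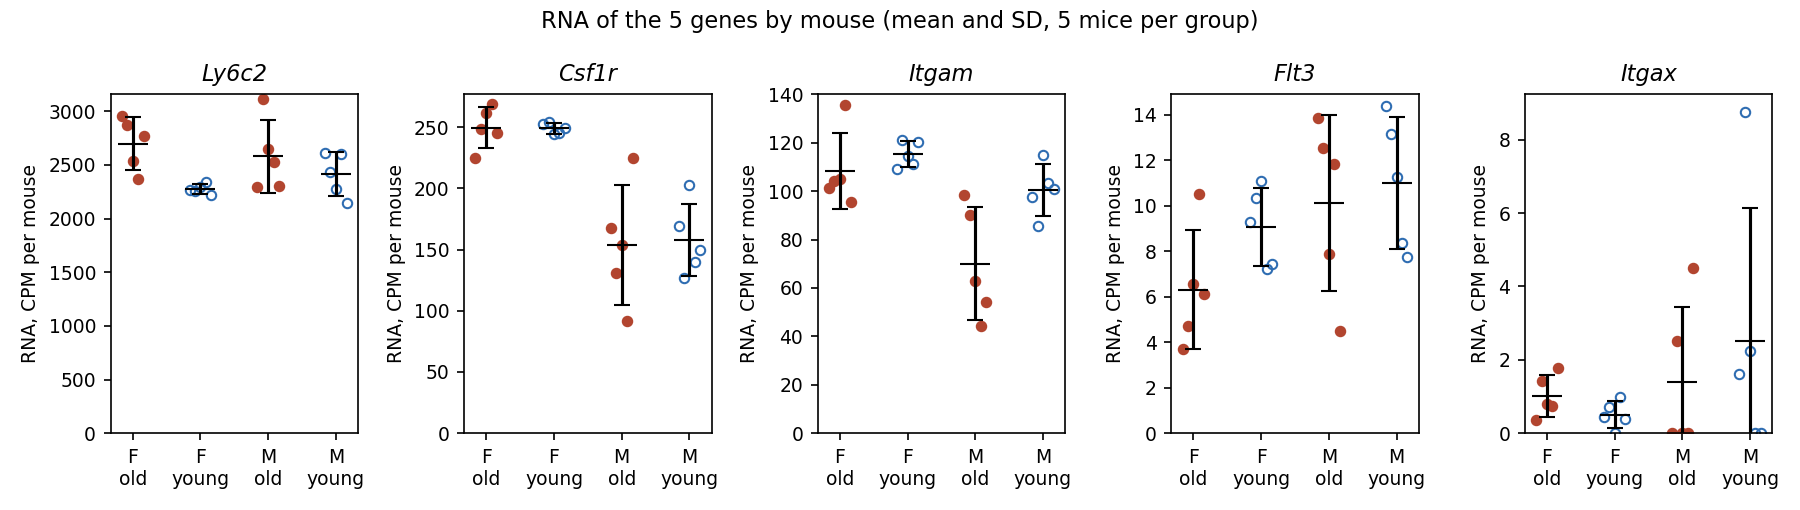
RNA of the 5 genes in CPM on the y axis for every mouse, females (F) and males (M), old (filled) and young (open); bars give the mean and SD of 5 mice. Ly6c2 in females is the panel in which all 5 old mice lie above all 5 young mice, from 2369 upwards against at most 2342 CPM.

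The first comparison asked whether the RNA of these markers changes with age. Ly6c2 rose with age in females. It stood at 2956, 2867, 2533, 2369 and 2771 CPM in old females 1 to 5 and at 2264, 2259, 2290, 2342 and 2222 CPM in young females 1 to 5. The groups did not overlap, although the lowest old mouse (old 4) exceeded the highest young mouse by little. The means were 2699 ± 243 and 2276 ± 44.6 CPM (SD, n = 5 each), a 1.19-fold difference (log2 0.25, SE 0.05, adjusted p = 0.0106, edgeR quasi-likelihood test with Benjamini-Hochberg adjustment over 10074 genes). Of the 4 members that could be tested in females, Ly6c2 was the 1 called, against 3.42% of all genes called and 2.03% called as higher in old mice. In CPM, every old mouse exceeded every young mouse for 3.1% of all genes.

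In males Ly6c2 was measured at 2297, 3117, 2647, 2528 and 2303 CPM in old mice 1 to 5 and at 2610, 2432, 2279, 2604 and 2148 CPM in young mice 1 to 5. The groups overlapped (log2 0.10, SE 0.08, adjusted p = 0.642, edgeR). At this depth 0 of 4323 genes passed the edgeR test in males (0% called), 605 of them (14%) were under 0.05 before adjustment, and 26 were called by DESeq2. For Ly6c2 an interaction term put the female change 0.15 above the male one on the log2 scale (SE 0.10, adjusted p = 0.799, edgeR), so the male and female changes were not shown to differ. The interaction was called for 0.0115% of all genes.

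Csf1r, the CD115 transcript (chromosome 18, 61100598 to 61132149, plus strand), showed no age difference in females. Old females 1 to 5 had 225, 248, 262, 269 and 245 CPM and young females 1 to 5 had 253, 254, 245, 245 and 249 CPM. The old mice spread to both sides of the young ones (log2 0.00, SE 0.05, adjusted p = 0.994, edgeR), and the approximate 95% interval of the difference, from the standard error of the fit over mice, ran from -0.09 to 0.10 on the log2 scale. In males it ranged from 91.8 to 225 CPM in old and from 127 to 203 CPM in young mice, with a log2 difference of -0.06 and a wide interval from -0.41 to 0.28 (adjusted p = 0.919, edgeR).

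Itgam, the CD11b chain, was at 101, 104, 105, 136 and 95.5 CPM in old females 1 to 5 and at 109, 121, 115, 111 and 120 CPM in young females 1 to 5. Old female 4 was above all young mice and the other 4 old mice were below all of them (log2 -0.08, SE 0.08, adjusted p = 0.680, edgeR). In males old mice 1 to 5 had 98.6, 90.3, 63.0, 44.4 and 54.0 CPM and young mice 1 to 5 had 97.6, 85.5, 115, 103 and 101 CPM. Of the old males, 3 lay below every young male, but the difference did not pass (log2 -0.44, SE 0.19, unadjusted p = 0.0310, adjusted p = 0.314, edgeR) and came to -0.06 after thinning. The second Itgam row was at 3.71 ± 0.882 CPM in old and 2.89 ± 0.418 CPM in young females (SD, n = 5 each, adjusted p = 0.346, edgeR).

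Flt3, at a small fraction of the Csf1r level, was at 3.70, 4.70, 6.56, 10.5 and 6.11 CPM in old females 1 to 5 and at 9.29, 10.3, 11.1, 7.22 and 7.46 CPM in young females 1 to 5. Of the old females, 4 were below every young female, and old 4 lay among them (log2 -0.35, SE 0.22, adjusted p = 0.472, edgeR). In males Flt3 rested on 50 UMIs and did not reach the count minimum of the test. It was at 10.1 ± 3.86 CPM in old and 11 ± 2.90 CPM in young males (SD, n = 5 each).

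Itgax, the CD11c chain, was close to the limit of detection. It gave 37 UMIs in old and 28 in young females and 2 and 6 UMIs in old and young males, too few for the test in either sex. Young female 3 had 0 of 259 cells with an Itgax UMI, which allows a share of up to 1.16% by counting error alone, and the other female mice had between 0.254% and 1.75% of cells with one.

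Counting the cells that held a UMI gave no further call with age among the members. In females Ly6c2 was found in 99.7% ± 0.277 of old and 99.3% ± 0.517 of young cells (SD, n = 5 mice each), Csf1r in 91.7% ± 1.30 and 90.3% ± 0.686, Itgam in 66.3% ± 3.62 and 65.3% ± 1.21, Flt3 in 6.79% ± 1.85 and 7.89% ± 1.24, and Itgax in 0.962% ± 0.674 and 0.413% ± 0.269. Among the 10 comparisons over both sexes the lowest unadjusted p was 0.0556 (Csf1r in females, two-sided exact permutation test, adjusted p = 0.317). With 5 mice on each side p cannot go below 0.00794. At an equal 2000 UMIs per cell, Flt3 was found in 1.11% ± 0.127 of old and 2.08% ± 0.743 of young female cells (exact permutation p = 0.00794, adjusted p = 0.0794 over 10 comparisons), a level that rests on 100 cells. Thinned Ly6c2 was found in 96.9% ± 1.57 of old and 94.7% ± 0.714 of young female cells (exact permutation p = 0.0317, adjusted p = 0.159). Ly6c1, which is no member, was found in 1.66% ± 0.802 of old and 0.625% ± 0.425 of young female cells as deposited (exact permutation p = 0.00794), and in 0.119% ± 0.124 and 0.0904% ± 0.125 after thinning (exact permutation p = 0.683).

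The partner and pathway genes were also examined. Itgb2, the shared beta chain, was at 238 ± 17.5 CPM in old and 237 ± 10.1 CPM in young females (adjusted p = 0.996, edgeR) and at 121 ± 45.9 and 160 ± 9.09 CPM in males (adjusted p = 0.437, edgeR). Of 18 tested integrin chains and their activators, 0 rose and 1 fell in females (1.4% of all genes fell), namely Itgb3, the beta chain of the vitronectin receptor (7.06 ± 1.04 CPM in young and 3.75 ± 0.809 CPM in old, adjusted p = 0.00496, edgeR). Of 9 growth factor receptors, 1 rose, as did 2.03% of all genes, namely Csf2rb, the shared beta chain of the GM-CSF and IL-3 receptors (92.1 ± 4.89 to 122 ± 9.62 CPM, adjusted p = 0.00108, edgeR), and 0 fell. Among 21 ligands and signalling genes of CSF1R and FLT3, 0 passed edgeR and 6 were under 0.05 before adjustment, as were 16.5% of all genes. Of 11 transcription factors that act on Csf1r and Flt3, 1 fell and 1 rose, against 1.4% and 2.03% of all genes. Klf4 fell (348 ± 13.8 to 241 ± 33.7 CPM, adjusted p = 0.00158, edgeR) and Cebpb rose (846 ± 71.0 to 1015 ± 94.3 CPM, adjusted p = 0.0326, edgeR). In females the medians of these lists lay between -0.04 and 0.00 on the log2 scale, beside 0.00 for all genes. In males 0 genes of these lists passed, and the medians lay between -0.20 and -0.11, beside 0.00 for all genes.

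The second comparison asked whether the proteins followed. The tags were counted in the same female cells, and the values are mean tag UMIs per cell and mouse. The Ly6C tag was at 404, 453, 502, 507 and 535 in old females 1 to 5 and at 547, 516, 536, 545 and 551 in young females 1 to 5. Of the 5 old mice, 4 were below every young mouse, and old 5 lay within the young range. The mean was 480 ± 51.8 in old and 539 ± 14.2 in young mice (SD, n = 5 each), 11.3% lower in old mice by the means of the logs (log2 -0.17, exact permutation p = 0.0159, adjusted p = 0.0952 over 6 tags), so the tag did not pass after adjustment. The tag difference thus pointed the other way from that of Ly6c2 RNA, which was higher in the same old mice. The median hashtag count per cell ran from 204 to 285 UMIs in old and from 244 to 335 in young females, overlapping ranges that were not tested. The other surface tags were on average higher in old mice, from log2 0.02 for CD11b to 0.76 for MHC-II, and none of them passed. As a share of all surface tag UMIs, the Ly6C difference was log2 -0.10 (exact permutation, adjusted p = 0.357). The part of antibody recovery in the Ly6C difference was not tested.

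**Figure D2:**
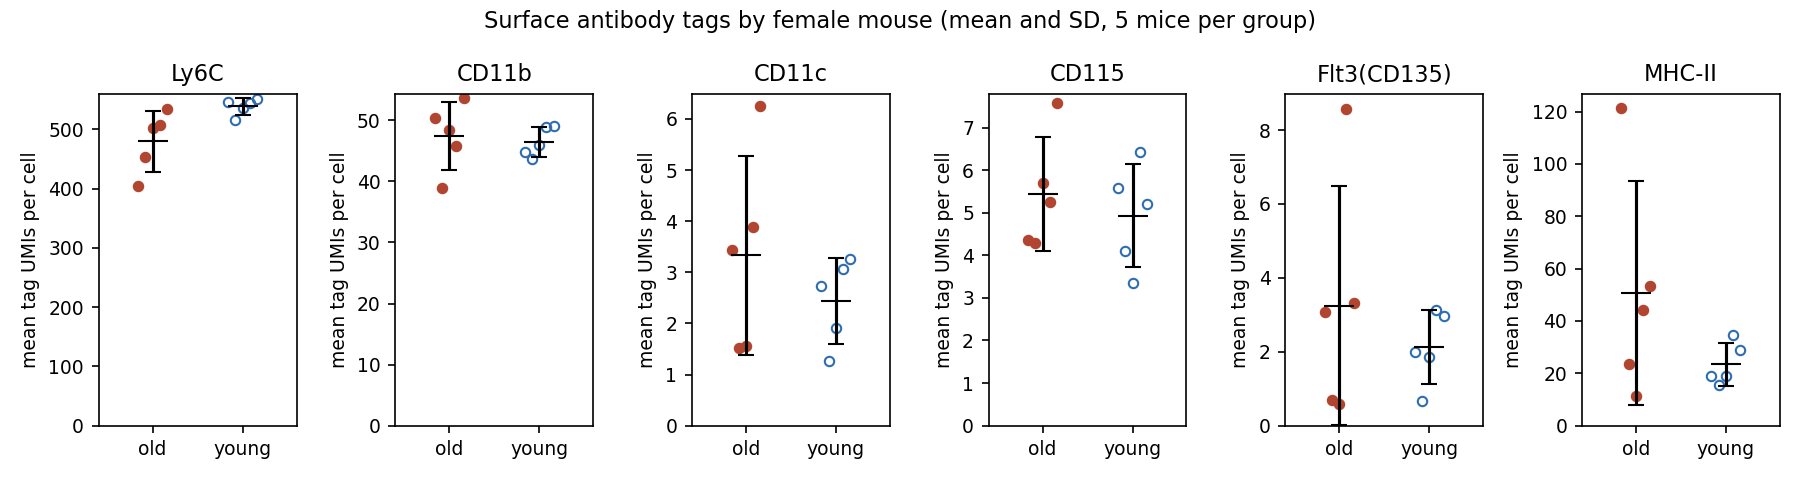
Mean surface tag UMIs per cell on the y axis for each of the 10 female mice, old (filled) and young (open), with the mean and SD of 5 mice; y axes start at 0 and differ between tags. Ly6C is lower in 4 of the 5 old mice than in any young mouse, and the Flt3(CD135), CD11c and MHC-II tags spread widely among mice of one age.

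The CD11b tag was at 50.4, 38.9, 48.4, 45.8 and 53.6 in old females 1 to 5 and at 44.8, 43.6, 46.0, 48.9 and 49.1 in young females 1 to 5, with the young range inside the old one (log2 0.02, exact permutation p = 0.841, adjusted p = 0.881). The CD115 tag was much weaker, at 4.36, 4.28, 5.70, 5.26 and 7.59 in old females 1 to 5 and at 5.58, 4.09, 3.36, 6.43 and 5.20 in young females 1 to 5. Its groups overlapped (log2 0.15, exact permutation p = 0.532, adjusted p = 0.798).

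The remaining tags differed more between mice than between ages. The Flt3(CD135) tag was at 3.07, 0.682, 0.595, 8.56 and 3.32 in old females 1 to 5 and at 1.99, 0.661, 1.86, 3.14 and 2.98 in young females 1 to 5, a 14.4-fold spread with old 3, young 2 and old 2 lowest. The CD11c tag was at 3.44, 1.52, 1.56, 3.88 and 6.25 in old and at 2.74, 1.26, 1.90, 3.06 and 3.25 in young females 1 to 5, with the same 3 mice lowest. Neither passed with age (exact permutation p = 0.881 and 0.492, adjusted p = 0.881 and 0.798). The MHC-II tag, which is no member, ran from 11.5 in old 3 to 121 in old 1, while 6 of 7 tested MHC-II genes rose in old females, against 2.03% of all genes (edgeR). Of the 6 tags 0 passed with age (0% called).

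The tags were read at very different depths. The median cell carried 482 Ly6C, 39 CD11b, 4 CD115, 2 CD11c and 2 Flt3(CD135) tag UMIs, and 24.8% of cells had 0 Flt3(CD135) UMIs, 20.9% had 0 CD11c UMIs and 8.57% had 0 CD115 UMIs. All 5 tags rose with the hashtag counts of a cell (Spearman's rho over 6641 cells of 0.24 to 0.41), and Ly6C and CD115 rose with its RNA UMIs (0.27 and 0.29) while CD11b fell (-0.33). Their part in the results was not tested.

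The third comparison set RNA against tag cell by cell, within each mouse, at 2000 RNA UMIs per cell. Fold and log2 differences here come from means of log2(tag UMIs + 1) over cells, whereas mean tag counts are plain means, so the scales differ. Cells above their mouse's median Ly6c2 count carried 1.21-fold more Ly6C tag than the other cells, and this held in 10 of 10 mice (exact sign-flip permutation p = 0.00195, the smallest that 10 mice allow, adjusted p = 0.00488 over 5 genes). The plain means of these groups were 542 and 485 tag UMIs. Without clusters 7 and 8 the log2 difference was 0.17 in place of 0.28, with the same p. Mean Ly6C tag counts rose from 424 ± 96.3 UMIs in cells with 0 Ly6c2 UMIs through 458 ± 49.9 at 1 to 2, 510 ± 58.3 at 3 to 4 and 531 ± 63.4 at 5 to 7 to 558 ± 47.4 at 8 or more (SD over 10 mice).

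Itgam and CD11b also went together from cell to cell. Cells with an Itgam UMI carried 1.40-fold more CD11b tag than cells without, again in 10 of 10 mice (log2 0.49 ± 0.13, SD over mice, exact sign-flip permutation p = 0.00195, adjusted p = 0.00488). The other tags of these cells ran from 0.876-fold for CD115 to 1.07-fold for CD11c. Cells with a Csf1r UMI also carried more CD11b tag, 1.27-fold, in 9 of 10 mice (exact sign-flip permutation p = 0.00391, unadjusted). The CD11b tag stood at 43.6 ± 3.84 UMIs in cells with 0 Itgam UMIs, 55.6 ± 6.49 with 1 and 63.4 ± 13.1 with 2 (SD over 10 mice). In the 4 mice with at least 5 cells at 3 or more Itgam UMIs it was 77.4 ± 28.2.

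Csf1r and CD115 showed no such step. The CD115 tag was at 5.21 ± 1.29 UMIs in cells with 0 Csf1r UMIs, 5.24 ± 1.21 with 1, 4.79 ± 1.30 with 2 and 5.61 ± 1.86 with 3 or more (SD over 10 mice). The difference between cells with and without the RNA was 0.03 on the log2 scale, with 7 of 10 mice above 0 (exact sign-flip permutation p = 0.428, adjusted p = 0.428), and single mice ran from -0.12 to 0.21. On counts as deposited, where deeper cells have more of both, the difference was 0.48 (p = 0.00195, exact), and on the centred log ratio, which divides by the other tags of the cell, it was -0.06 (p = 0.0117, exact).

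Flt3 and Itgax were too sparse for a firm comparison. After thinning, 100 cells held a Flt3 UMI, and their Flt3(CD135) tag was 1.11-fold that of other cells, higher in 7 of 10 mice (exact sign-flip permutation p = 0.0820, adjusted p = 0.103). The plain means were 2.78 and 2.69 tag UMIs. Only 13 cells, in 7 mice, held an Itgax UMI, and their CD11c tag was 2.41-fold that of other cells, higher in 6 of these 7 mice (exact sign-flip permutation p = 0.0625, adjusted p = 0.103). Their other tags ran from 0.712-fold for Ly6C to 3.31-fold for MHC-II (6 of 7 mice, exact sign-flip permutation p = 0.0625). In the cells with a Flt3 UMI the other tags ran from 0.754-fold for Ly6C to 1.27-fold for CD11c. The differences were thus not particular to the matching tag. Without clusters 7 and 8 the Itgax difference had an exact p of 0.0469, and on counts as deposited the differences for Itgax and Flt3 had an exact p of 0.00391 and 0.00195.

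**Figure D3:**
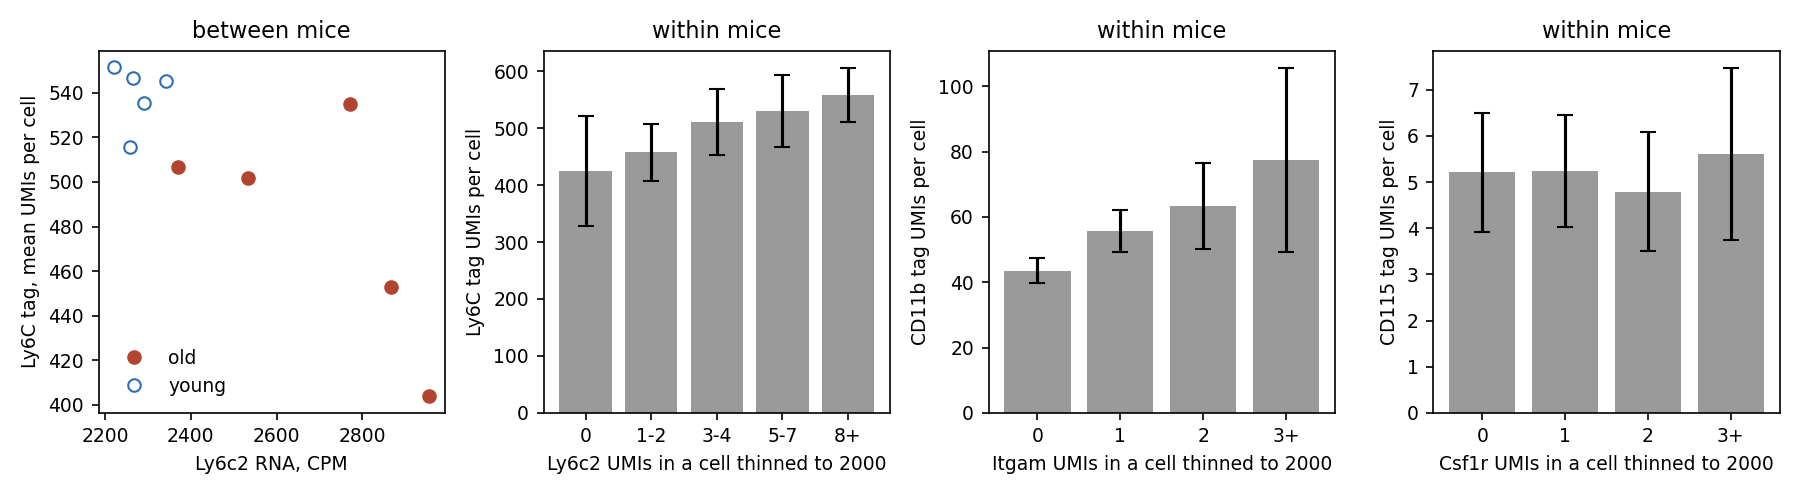
Left, Ly6c2 CPM on the x axis against mean Ly6C tag UMIs per cell on the y axis for 10 female mice (axes do not start at 0). The other panels give mean tag UMIs per cell by the number of RNA UMIs of the matching gene in cells thinned to 2000 UMIs (bars, mean over mice with at least 5 such cells; error bars, SD over mice). Ly6C and CD11b rise with their RNA from 424 to 558 and from 43.6 to 77.4, whereas CD115 stays between 4.79 and 5.61.

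Placed among all 7436 genes found in at least 10% of female cells, Ly6c2 had the second highest mean within-mouse Spearman's rho with the Ly6C tag, 0.16 ± 0.04 (SD over 10 mice), after Hmgb2 at 0.17, a chromatin protein of dividing cells, and ahead of Top2a, Tubb5 and Stmn1. The lowest were Cd74 (-0.22), H2-Aa (-0.17) and Ifitm3 (-0.16), so Cd74 was farther from 0 than Ly6c2. Itgam ranked 81st for the CD11b tag with a rho of 0.18 ± 0.05, and Csf1r was level with it at rank 80 and 0.18 ± 0.06. The CD11b tag went most with Lyz2 (0.50), Ccl6, Cybb, Ifitm3 and Ctss, genes of mature phagocytes. It went against Ppia (-0.44), Prtn3 (-0.43) and Ptma (-0.41), with a rho above 0 in 0 of 10 mice for each. These are descriptions over cells that share a library and a mouse.

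For the CD115 tag, Csf1r ranked 2158th of 7436 with a rho of 0.01 ± 0.05. The genes most like the tag were Ptma (0.15), Rps2, Tubb5, Ctsg and Ppia, and the least like were Chil3, Tmsb4x and Lyz2 (-0.16). The RNA of Csf1r had nearly the reverse company, most like Lyz2 (0.26), Ctss, Ifitm3, Apoe and Ccl6 and least like Ppia (-0.27), Ptma and Stmn1. Itgam RNA went with Lyz2 (0.23), Ccl6, Ifitm3, Cybb and Ctss and against Ptma, Ppia and Stmn1, whereas Ly6c2 RNA went with S100a10 (0.20), Lgals1, Ppia, Tmsb10 and Hmgb2 and against Apoe (-0.20), Gngt2 and Srgn.

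Flt3, in 7.35% of female cells, and Itgax, in 0.663%, were both under the 10% needed for the ranking and are given by their rho alone, 0.02 ± 0.03 for Flt3 with its tag over 10 mice and 0.05 ± 0.05 for Itgax with CD11c over 7 mice. The CD11c tag went against Prtn3 (-0.15), Elane and Ctsg, granule protease genes. The Flt3(CD135) tag was most like Malat1 (0.13), Sirpb1c, Plac8, Ccl6 and Samhd1, while Lgals1, Gapdh and Prtn3 were the lowest for it. The CD11c tag was most like Ifitm3 (0.12), Ifi27l2a, Cybb, Ccl6 and Ctss. The RNA of Flt3 was most like Cd74 (0.09), Ank, Cst3, Ckb and Sertad2 and least like Slpi, Arhgdib and Gapdh. For Itgax RNA, held by 13 cells in 7 mice after thinning, the values were weak. They were led by Lmbr1l (0.10 ± 0.14, SD over mice), Cd82, H2-Eb1, Pde4a and Dpp4, with Pitpna, Fam96a and Anxa2 lowest. Each of the leading genes had a rho above 0 in only 2 to 5 of 10 mice, so their order is not read.

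Between mice the picture for Ly6c2 turned round. Over the 10 females, log2 Ly6c2 CPM and the log2 Ly6C tag had a Pearson r of -0.79 (permutation p = 0.00557, adjusted p over 5 genes 0.0278) and a Spearman's rho of -0.81 (permutation p = 0.00724). Without old 1 and old 2, the mice farthest from the median RNA level, r was -0.29, so the relation rests on those mice. With the mean of each age group subtracted, r was -0.61 (permutation p = 0.0655). For Itgam and CD11b r was -0.29 (rho -0.41), for Itgax and CD11c 0.21 (rho 0.05), for Csf1r and CD115 0.18 (rho 0.15) and for Flt3 and its tag 0.12 (rho -0.02), with permutation p from 0.421 to 0.741 for r, from 0.248 to 0.973 for rho, and an adjusted p of 0.741 for each r. Without the 2 farthest mice these r were 0.02, -0.52, -0.01 and 0.07.

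The tags were then compared between the RNA clusters, which had been formed without the tags and without the 5 genes. Cluster 4, NeuMo-like and led by Mpo, Ms4a3, S100a9 and Elane, had the lowest Csf1r CPM, 117 ± 17.0, and the most CD115 tag, 8.74 ± 1.92 UMIs per cell (SD over 10 mice). Its leading genes also held Cd34, Mpo and Elane of the progenitor marker list. The name therefore does not tell neutrophil-like monocytes from progenitors. The scales differ, since CPM is a share of the RNA and the tag is a count per cell. In UMIs, Csf1r gave 1776 in the 627 cells of cluster 4 and 1375 in the 692 cells of cluster 2, so cluster 4 was not lowest per cell. After thinning, a Csf1r UMI was found in 21.1% of cluster 4 and 35.5% of cluster 2 cells. The CD115 tag of cluster 4 exceeded that of the other cells in 10 of 10 mice (log2 0.71, exact sign-flip permutation p = 0.00195, adjusted p = 0.00493 over 48 tests). Cluster 5, DCMo-like and led by H2-Eb1, H2-Aa and Cd74, had the most Csf1r RNA, 556 ± 93.5 CPM, and 5.30 ± 1.55 CD115 UMIs (log2 0.07, adjusted p = 0.356, exact sign-flip). Cells of cluster 4 were also the deepest, with a median of 23806 RNA UMIs against 8309 in cluster 5. The part of depth in the CD115 tag was not tested.

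**Figure D4:**
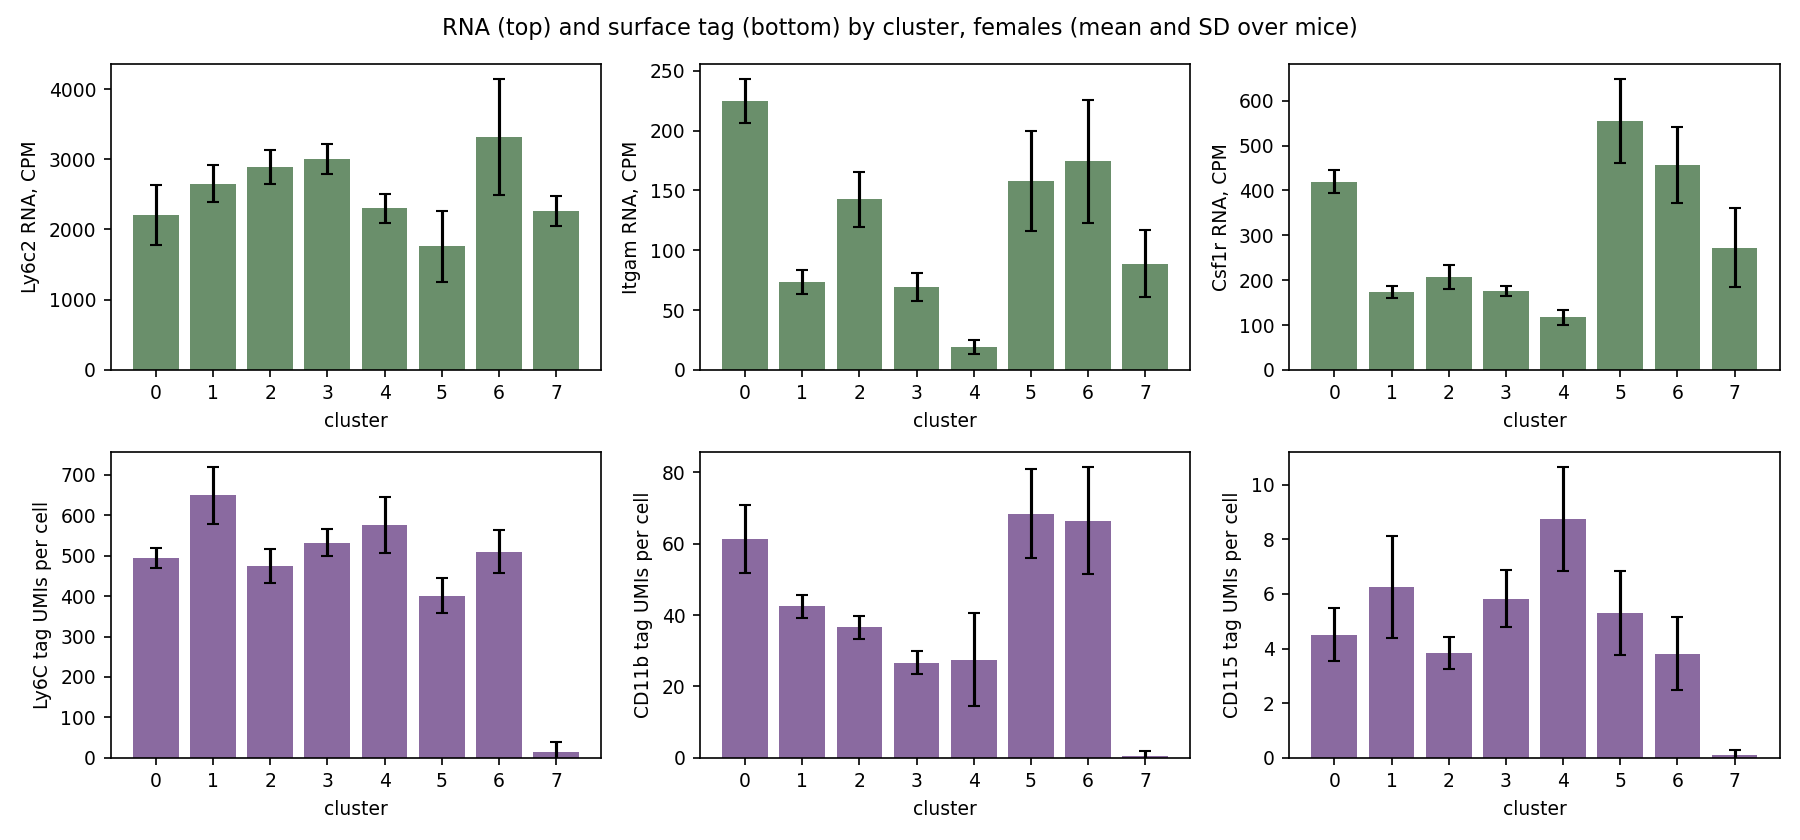
Ly6c2, Itgam and Csf1r RNA in CPM (top) and the matching tags in UMIs per cell (bottom) for RNA clusters 0 to 7 of females; bars are means and error bars SD over mice with at least 5 cells in the cluster. Cluster 4 has the lowest Itgam and Csf1r CPM but the tallest CD115 bar. Cluster 7 has RNA of all 3 genes but nearly no tag of any kind, and its cells are assigned to mice with little certainty.

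CD11b and Itgam went the same way in some clusters and not in others. Itgam RNA was at 225 ± 18.7 CPM in cluster 0 (unnamed, led by Sirpb1c and Hpgd), 158 ± 41.5 in cluster 5 and 174 ± 51.4 in the interferon-stimulated-like cluster 6, and their CD11b tag was at 61.3 ± 9.46, 68.4 ± 12.5 and 66.5 ± 15.1 UMIs, higher than in the other cells in every mouse tested (adjusted p = 0.00493, 0.00493 and 0.00815, exact sign-flip). In cluster 4 and in the S-phase-like cluster 3, Itgam was at 18.9 ± 5.68 and 69.3 ± 12 CPM and the tag at 27.5 ± 13.1 and 26.6 ± 3.25 UMIs, lower in 10 of 10 mice (adjusted p = 0.00493 for both, exact sign-flip). Cluster 2 (unnamed, led by Hist1h2bc and Ccnb2) had more Itgam RNA than cluster 1, 143 ± 23.1 against 73.5 ± 10.1 CPM, but 36.6 ± 3.22 against 42.5 ± 3.21 CD11b tag UMIs, a pair that was not tested against each other. In cluster 7 Itgam was at 88.8 ± 28.1 CPM and the tag at 0.563 ± 1.36 UMIs (SD over 7 mice). The other tags were nearly absent there too, with CD115 at 0.0944, CD11c at 0.0654 and MHC-II at 1.67 UMIs. The low value was therefore not particular to CD11b. With a median leading hashtag share of 25%, the assignment of these cells to mice is also uncertain. The Ly6C tag was highest in the G2/M-like cluster 1 at 649 ± 70.3 UMIs (10 of 10 mice, adjusted p = 0.00493, exact sign-flip), where Ly6c2 was at 2649 ± 264 CPM. The DCMo-like cluster had the least Ly6c2 RNA of clusters 0 to 7, 1758 ± 510 CPM. Its Ly6C tag mean, 401 ± 42.7 UMIs, was the lowest of clusters 0 to 6 (adjusted p = 0.156, exact sign-flip). The other cells in the tests of clusters 0 to 6 included cluster 7, whose Ly6C tag was at 14.1 ± 25.7 UMIs. Cluster 2, at 475 ± 41.7 Ly6C tag UMIs, came out at log2 0.18 against such a rest. Cluster tests without cluster 7 were not run, so the p of 0.156 does not show an equal Ly6C tag.

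The Flt3(CD135) and CD11c tags were both higher in the DCMo-like cluster than in the other cells of the same mouse, in 10 of 10 mice (log2 0.33 and 0.43, adjusted p = 0.00493 for both, exact sign-flip). The rise was not particular to these tags. In the same cluster the CD11b and MHC-II tags were also higher in 10 of 10 mice (log2 0.76 and 1.43, adjusted p = 0.00493 for both, exact sign-flip). Flt3 RNA was also at its highest there, 35.6 ± 26.9 CPM. Itgax CPM was highest there among clusters 0 to 6, at 3.14 ± 3.63 on 15 UMIs in 2.14% of its cells. The G2/M-like cluster 1 gave more Itgax UMIs, 36, in 1.75% of its cells. Its CD11c tag was also higher than in the other cells in 10 of 10 mice (log2 0.25, adjusted p = 0.00493, exact sign-flip). Its Flt3(CD135) tag was higher in 8 of 10 (log2 0.09, adjusted p = 0.0358, exact sign-flip). In cluster 0 the CD11c tag was higher in 10 of 10 and Flt3(CD135) in 9 of 10 mice (log2 0.10 and 0.14, adjusted p = 0.00493 and 0.011, exact sign-flip). Higher CD11c and Flt3(CD135) tags were thus not particular to the DCMo-like cluster. In males, cluster 1 held 8 Itgax UMIs and cluster 5 held 0. Of all 48 tests of a tag in a cluster, 72.9% were called. In the 3 mice with at least 5 T or NK-like cells, these had 15.5 ± 7.30 Flt3(CD135) and 10.6 ± 3.06 CD11c tag UMIs, more than any other cluster. They were not tested. Of the 35 T or NK-like cells, 97.1% also held a Ly6c2 UMI. Their Ly6C tag was at 625 ± 98.2, CD11b at 52.1 ± 7.74 and MHC-II at 129 ± 52.5 UMIs, and their median hashtag count was the highest of the clusters. Their tag levels were therefore not read as those of T or NK cells.

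Within single clusters, a comparison added after the data had been seen, Ly6c2 CPM was higher on average in old than in young females in clusters 0 to 5 (log2 0.14 to 0.49, unadjusted exact permutation p from 0.00794 to 0.0397, adjusted p from 0.0857 to 0.119 over 18 tests). The largest cluster, 0, held 2518 ± 415 CPM in old and 1897 ± 42.4 in young mice (SD, n = 5 each) without overlap. The Ly6C tag was lower on average in old mice in the same clusters, by log2 -0.23 to -0.08, with an adjusted exact p from 0.643 to 0.845 over 36 tests, of which 0% were called. Cluster shares themselves moved with age: cluster 5 made up 15.5% ± 14.3 of old and 4.10% ± 0.715 of young female cells (exact permutation p = 0.00794), and cluster 0 28.3% ± 13 and 44.2% ± 0.916 (exact permutation p = 0.00794). With the cluster composition held fixed, the Ly6C tag difference was log2 -0.13.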

How the data were processed

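The deposited values were whole-number UMI counts per feature and cell barcode, made by the authors, per their methods, with STAR 2.5.1 and Cell Ranger 4.0.0 on mm10, and not normalized. The file headers name version 7.0.0 for males and 3.1.0 for females. The surface tags are not described in the methods, so their clones and staining order are not given in the sources used here. Per the methods, the sort used fluorescent antibodies to CD11b, CD115 and Ly6C. Whether these competed with the tags of the same proteins is not known, which limits the reading of those tag counts as protein levels. Columns without a sample map numbered 0.

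The 5 genes, their tags and the gene lists were chosen with earlier results of these data known. Hashtags were assigned to mice with the authors' table, and singlets by HTODemux (Seurat 5.3.0, defaults) with over 200 genes and under 5% mitochondrial UMIs were kept. Doublets of 2 cells of the same mouse cannot be seen this way. HTODemux called 2478 doublets and 942 negatives in 10433 female barcodes and 401 and 0 in 1227 male barcodes. The authors' removal of a small set of female cells was not repeated.

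For RNA, each mouse was 1 summed library, fitted in edgeR 4.0.16 by quasi-likelihood after TMM scaling and filterByExpr (two-sided, Benjamini-Hochberg over all genes, threshold 0.05), with DESeq2 1.42.0 as an alternative, in R 4.3.3. Shares and tags were compared by two-sided exact permutation over 252 assignments of mice. Cells with and without RNA, and clusters, were compared by two-sided sign-flip over mice. Correlations over mice used 100000 permutations. Tag tests used log2(UMIs + 1) per cell or the log2 of the mean per mouse. Clusters followed the study's workflow (SCTransform, 3000 features without the 5 genes and Ly6c1, 20 components, resolution 0.3) and were named from markers fixed in the design, with 5 cells per mouse required. The limits given for a count of 0 cover counting error only, whereas the intervals of fold changes come from the spread between mice. Mice are the replicates.

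Genes were named by rule: the 5 members, Ly6c1, Itgb2, called members of the lists, and the 5 highest and 3 lowest genes by rho for each tag and transcript. Alternatives were other normalizations, filters, cell assignments, thinning, tag scales, the replicate block and leaving out each mouse. Leaving out clusters 7 and 8, summing the Itgam rows and the tests within clusters were added after the data had been seen.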

Additional observations from a re-analysis of the deposited data

Results flagged for a closer look

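Among 52 groups of 5 mice examined for a sample far from the others, 2 were marked, and chance marks about 1 in 20. Itgam in old female 4 stood at 136 CPM while the other 4 old females lay between 95.5 and 105 CPM. Itgax in young male 2 stood at 8.77 CPM, which is 4 UMIs, while the other young males lay between 0 and 2.25 CPM.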

How the results depend on the processing

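For 40 results, 480 alternative values were computed beside the main ones. Of these alternatives, 417 counted as unchanged. They kept their direction and their side of the threshold or stayed within the stated spread. Numbers of genes called counted as unchanged if they lay within a set fold range of the main number. Ly6c2 RNA in females was called under all 17 alternatives, at log2 0.21 to 0.29. Where a value below moved, the cause was not tested.

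The number of genes called in females, 345 in the report, was 560 with all cells assigned by their leading hashtag and 141 after thinning; leaving out 1 mouse gave 194 to 522, with 522 without old 4 and 214, 194, 216 and 215 without young 1, 2, 4 and 5. In males, 0 in the report, it was 2 after thinning, 142 without the filter on low counts, 26 by DESeq2, and 0 to 88 with 1 mouse left out, namely 88 without old 1 and 14 without old 4. The log2 difference of Csf1r RNA, near 0, was -0.026 and -0.048 in females by leading hashtag and after thinning, and with 1 mouse left out ran from -0.022 to 0.041 in females (-0.013 without old 3, -0.022 without old 4 and -0.00034 without young 4) and from -0.18 to 0.050 in males (0.050 without old 4 and 0.035 without young 3).

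Old minus young shares of cells with a UMI, in percentage points, turned after thinning to -5.44 for Csf1r and -0.38 for Flt3 in males, and to -1.46 for Itgam and -2.07 for Csf1r in females, while Ly6c2 at 2.23 and Flt3 at -0.98 in females fell under an unadjusted 0.05. By leading hashtag Itgax in males was at -0.13. With 1 mouse left out the shares ran from -0.43 to 0.35 for Itgax and 1.82 to 3.88 for Flt3 in males, and from -0.47 to 1.68 for Itgam, 0.35 to 0.73 for Itgax and 0.92 to 1.71 for Csf1r in females. Single values were -0.17, -0.43, -0.19 and -0.19 for Itgax in males without old 2, old 5, young 4 and young 5, and -0.47 for Itgam in females without old 4.

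Among the tags, CD11b turned to -0.10 on the centred log ratio and -0.023 on the mean of log2(UMIs + 1), and CD115 to -0.014 on the centred log ratio. With 1 mouse left out the Ly6C tag ran from -0.21 to -0.11 and passed without old 5 (-0.21, exact permutation, adjusted p = 0.0476). CD11b ran from -0.025 to 0.091 and was -0.0024 without old 1, -0.025 without old 5 and -0.0014 without young 2. Flt3(CD135) ran from -0.39 to 0.57 and was -0.022, -0.39, -0.049 and -0.25 without old 1, old 4, old 5 and young 2. For cells with against without RNA, counts as deposited gave 1.605 for Itgax, 0.48 for Csf1r and 0.19 for Flt3, and the centred log ratio gave -0.060 for Csf1r. Itgax was 1.47 without clusters 7 and 8, and 0.81 to 1.61 with 1 mouse left out; Flt3 was 0.11 to 0.19. Over mice, r of Ly6c2 RNA and the Ly6C tag was -0.61 with age means subtracted and -0.57 on the centred log ratio, neither under 0.05. Over cells, rho of Ly6c2 was 0.26 on the centred log ratio and 0.36 on counts as deposited, Itgam was 0.31, Csf1r 0.19 and Flt3 0.057 on counts as deposited, and Csf1r was -0.053 on the centred log ratio.

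Mouse numbers did not pair the mice. Deviations of same-numbered old and young mice correlated at -0.05 to 0.09 in females and -0.10 to 0.03 in males, with 0 pairs over 0.1 in either sex, and 1 of 5 female and 0 of 5 male numbers matched best with their own. With the replicate block, 305 genes were called in females and 5 in males, and the Ly6C tag stood at -0.17.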
